A study of Mus musculus with 24 samples.

Results

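This report describes the genes of protein synthesis in the tibialis anterior, a muscle of the lower leg, of mice in which Hira was deleted. The genes are the eukaryotic initiation factors (eIFs), the elongation factors (eEFs), the enzymes that load amino acids onto tRNA (aminoacyl-tRNA synthetases) and the scaffold proteins of the synthetase complex. Members were all probes whose platform symbol begins with EIF or EEF and a digit, leaving out EIF4EBP1, or with AIMP, or is one of the listed cytosolic or mitochondrial synthetases. The rule gave 114 probes of 90 genes, out of 26423 probes and 17742 named genes on the array, and it used no measured value. The old symbols EIF2C1 to EIF2C4 meet it too. They stand for Ago1 to Ago4, Argonaute genes that act with microRNAs and are not initiation factors, so their 6 probes are described apart. Eef1a1 has no probe among the members.

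Muscles of 8 mice aged 6 weeks, of the mixed background C57BL6/J;129S1/SvImJ, were measured on 1-colour arrays with Cy5-labelled total RNA. The 4 Hira CKO (conditional knockout) mice had the genotype Myf6 cre/+; Hira flox/-, and the 4 control mice Myf6 cre/+; Hira flox/+. The HIRA protein is a chaperone that places histone H3.3 into chromatin, and the Myf6 driver is active in muscle fibres. Every animal carried the driver and a floxed allele. The second Hira allele, null in Hira CKO and intact in control mice, sets the groups apart in all cells, including those in which cre is not active. Each animal was hybridised on 3 arrays, whose mean is the animal's value, and the animal was the replicate.

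Translation begins when eIF2 brings the initiator tRNA to the small ribosomal subunit, which carries eIF1, eIF1A and eIF3, while the cap-binding eIF4 factors bring the mRNA. The exchange factor eIF2B reloads eIF2 with GTP, and kinases that phosphorylate eIF2 block that step under stress. Elongation factors then feed loaded tRNAs to the ribosome and move it along the mRNA. In mammals several cytosolic synthetases are held together with the scaffold proteins AIMP1, AIMP2 and AIMP3 in a multi-synthetase complex, and mitochondria use their own set. Muscle is rich in eEF1A2, the form of elongation factor 1A that replaces eEF1A1 in adult fibres.

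The labels could be checked only in part. The Hira probe read 558 ± 38.9 in Hira CKO and 495 ± 48.9 in control mice (SD, n = 4 each), a difference of 0.17 log2 (SE 0.087) which did not pass (limma adjusted p 0.193; exact two-sided permutation p 0.114, where 0.0286 is the smallest possible). Its position relative to the floxed region is not known here, so directions rest on the group labels. Of 10 muscle fibre markers 7 were measured, each at or above the 99.8th percentile of probe intensity, and 2 of them, Acta1 and Ckm, were called lower (−0.55 and −0.28 log2). Summed endothelial markers lay between 33835 and 39147 in Hira CKO and between 46091 and 60392 in control mice. Of the 6 markers 3 were called lower, against 10% of all probes. Tek, Cdh5 and Tie1 differed by 0.11, −0.18 and −0.16 log2 and did not pass. The brightest, Egfl7, at 19234 in Hira CKO and 30882 in control mice, weighs most on the sum. Of 5 lymphocyte markers 3 were called higher, against 10.5% of all probes (sums of 3225 to 4887 against 2140 to 3421). Cd79a, the brightest lymphocyte marker, did not pass, and neither did Cd3g, at −0.02 log2. The lymphocyte and muscle fibre sums overlapped between the groups, as did those of macrophage, fibroblast, satellite cell, erythroid, adipocyte and Schwann cell markers. The part of these shifts in the results below was not tested, and in a whole muscle fewer cells of a type and less RNA per cell cannot be told apart.

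The translation genes moved in both directions and mostly by little. The test throughout was limma on log2(intensity + 16), adjusted over all 26423 probes by the Benjamini-Hochberg method, and a probe is said to have risen or fallen in Hira CKO mice where the adjusted p was under 0.05. Of the 114 probes 11 rose and 18 fell, 25.4% in all, against 20.6% of all probes on the array. The rises were 9.65% of the members against 10.5% of all probes, and the falls 15.8% against 10%. Members were brighter than most probes, with a median intensity of 2966 against 443 for all probes. The part of brightness in these shares was not tested. Shares of single roles, given below, rest on few probes. The 8 animals separated without overlap between the groups at 29 member probes (25.4%), against 24.8% of all probes. The median difference, Hira CKO minus control, was 0.05 log2 for the members and 0.01 log2 for all probes, and the median size of a difference was 0.18 and 0.16 log2. Changes of 2-fold or more were 1 rise and 3 falls among the 114 members, against 146 rises and 295 falls among all 26423 probes. To see how far calls depend on the animals used, the fit was repeated 8 times with 1 animal left out each time (leave-one-out fits). Fewer animals also give less power: over all probes these fits called 1841 to 2634 rises, against 2783 with all animals. A probe near the threshold can thus be lost in many of them without resting on 1 animal. With 1 probe per gene, the brightest, 9 genes rose and 12 fell out of 90, against 1949 and 1816 out of 17742.

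**Figure D1:**
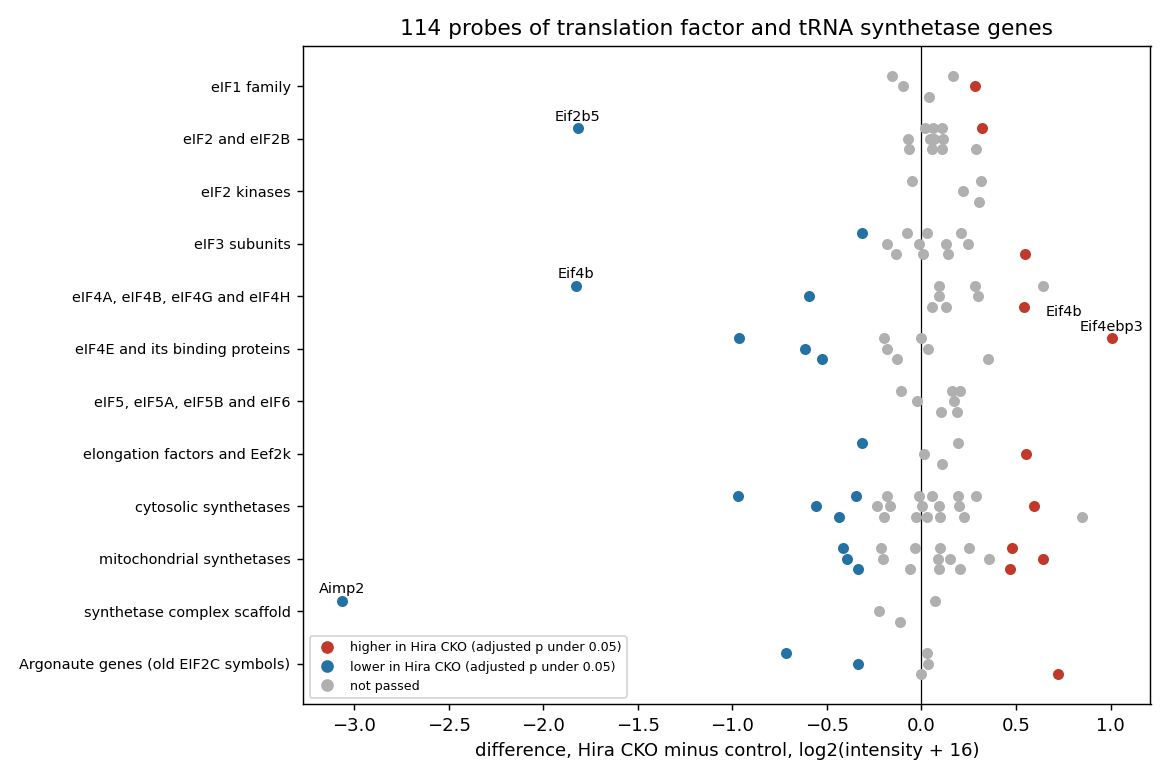
Difference of each of the 114 member probes on the log2(intensity + 16) scale, Hira CKO minus control (x axis), by role of the gene (rows). Each point is a probe, coloured by whether it passed an adjusted p of 0.05; most points lie near 0, and the Aimp2 probe at −3.07, an Eif4b probe at −1.83 and the Eif2b5 probe at −1.82 stand far to the left.

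Upstream sequences of the members were searched for 3 motifs, known from amino acid response genes and from growth and housekeeping genes, in windows reaching 250 bases before and 50 bases after each start site, on both strands. The motifs were TGATGNAA, the element that ATF4 binds in amino acid response genes, CACGTG, the E-box bound by Myc and related factors, and CCGGAAGT, an ETS site. None of the 3 contains another. RefSeq promoters (GRCm38.p6) were matched for 70 of the 90 genes. TGATGNAA was found for 6 of them (8.57%), against 4.51% of 27025 genes, namely Aars, Eef2k, Eif2s3x, Gars, Iars and Tars. CACGTG was found for 16 (22.9%, against 8.09%) and CCGGAAGT for 13 (18.6%, against 4.31%). The 27025 genes are all those with a promoter sequence, on the array or not, and shares for genes as bright as the members were not computed. Stretches before the start site are shown for the ATF4 element, which lies on the opposite strand in each, with the element in capitals. They come from Aars (chr8:111033705-111033762, + strand), Gars (chr6:55037946-55038000, + strand), Tars (chr15:11399659-11399698, − strand) and Eef2k (chr7:120851080-120851137, + strand).
Aars: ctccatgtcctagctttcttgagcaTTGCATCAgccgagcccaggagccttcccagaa
Gars: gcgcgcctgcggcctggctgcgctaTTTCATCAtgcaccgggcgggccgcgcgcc
Tars: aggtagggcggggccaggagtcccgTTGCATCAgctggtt
Eef2k: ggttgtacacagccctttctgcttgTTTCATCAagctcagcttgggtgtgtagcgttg
The E-box, in capitals, is shown for 3 genes whose probes passed, Eef2 (chr10:81176563-81176618, + strand), Eif4g1 (chr16:20672648-20672703, + strand) and Farsb (chr1:78488906-78488961, − strand).
Eef2: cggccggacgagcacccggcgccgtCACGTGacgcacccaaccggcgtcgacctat
Eif4g1: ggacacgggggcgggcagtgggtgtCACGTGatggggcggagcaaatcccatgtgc
Farsb: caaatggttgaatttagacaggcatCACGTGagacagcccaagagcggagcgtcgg
A match is a description of the letters and not of binding. Of all 70 matched genes, with or without a motif, 20 had at least 1 probe that passed. Of the 6 genes with TGATGNAA, 0 had a probe that rose and Eef2k had one that fell. Of the 16 with CACGTG, Eef2 rose, and Eef2k, Eif4g1 and Farsb fell. Of the 13 with CCGGAAGT, 0 rose and Eif4e2 fell at 1 of its probes.

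Among the factors that load the initiator tRNA, the largest change was in Eif2b5, the catalytic subunit of eIF2B. It read 438, 536, 543 and 539.6 in the Hira CKO animals and 1655, 1904, 1869 and 1986 in the control animals. The groups lay far apart, and the probe fell by 1.82 on the log2 scale (SE 0.094, limma adjusted p 4.78e-06). Eif2b1, a regulatory subunit of the same complex, rose by 0.32 (SE 0.080, limma adjusted p 0.0203). It read 13519.9, 12980.1, 12927 and 11239 in Hira CKO and 9895, 10216, 10774 and 9623 in control animals. The groups did not overlap for Eif2b1, but 3 of 8 leave-one-out fits did not call it. The other 4 eIF2B probes differed by 0.02 to 0.11 log2 and did not pass.

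Eif2b5 and Hira both lie on chromosome 16, with 17 protein-coding genes between them in the RefSeq order. Of 9 probes for genes in that interval 0 rose and 1 fell. Eif4g1 lies further along the same stretch, 28 protein-coding genes from Hira. On chromosome 16 as a whole 11.6% of probes rose and 11.6% fell. Whether the neighbourhood of the targeted locus plays a part in these changes was not tested.

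The 3 subunits of eIF2 itself differed by 0.06 to 0.12 log2, and 0 passed. The brightest probe of this group belonged to Eif2a, an alternative initiation factor separate from the eIF2 complex, and it differed by 0.29 log2 (limma adjusted p 0.156). Of the 4 eIF2 kinases, which respond to haem lack, double-stranded RNA, ER stress and amino acid lack, 0 passed. Their differences ran from −0.05 to 0.31 log2, with Eif2ak1, the haem-regulated kinase, at 0.22 (limma adjusted p 0.0748).

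Of 5 probes of the eIF1 family, whose proteins help the small subunit find the start codon, 1 rose and 0 fell. That is 20%, against 20.6% of all probes. Eif1ax read 7465, 7655, 7252 and 7715 in Hira CKO and 6101, 5985, 6594 and 6048 in control animals, without overlap. It rose by 0.28 (SE 0.067, limma adjusted p 0.0150). Eif1b, the brightest of the family, averaged 20401 in Hira CKO and 22751 in control mice, which did not pass (limma adjusted p 0.194).

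The 12 eIF3 subunits, each measured by 1 probe, form the large scaffold on the small subunit, and 1 rose while 1 fell. That is 16.7%, against 20.6% of all probes. Eif3e read 3431, 4103, 3693 and 3645 in Hira CKO and 2251, 2219.7, 2715 and 2984 in control animals. Eif3h read 5288, 5072, 4794 and 4824 in Hira CKO and 5602, 6047, 6796 and 6517 in control animals. Neither gene overlapped between the groups, and Eif3e rose by 0.55 (SE 0.109, limma adjusted p 0.00691) while Eif3h fell by 0.32 (SE 0.082, limma adjusted p 0.0229). Eif3h was not called in 4 of 8 leave-one-out fits. The other 10 subunits did not pass, among them Eif3f, the brightest, at 47025 in Hira CKO and 46156 in control mice. Both genes lie on chromosome 15 with 11 protein-coding genes between them.

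The cap-binding complex eIF4F joins the cap-binding protein eIF4E, the helicase eIF4A and the scaffold eIF4G. Eif4g1, the main scaffold, read 9632, 11299.9, 11056 and 11109.8 in Hira CKO and 13865, 16099, 17834 and 17501 in control animals. All 4 Hira CKO values were below all control values, and the probe fell by 0.60 (SE 0.097, limma adjusted p 0.00248). The other eIF4F probes, for Eif4a1, Eif4a2, Eif4e and Eif4g3, differed by 0.03 to 0.30 log2 and did not pass. Eif4g2, a relative that acts without the cap, had probes at 0.64 and 0.09 log2 that did not pass either.

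Eif4b, which stimulates the helicase, gave opposite results at its 2 probes. The first read 898, 1359, 1448 and 948 in Hira CKO and 3877, 3359, 4479 and 4675 in control animals, and fell by 1.83 (SE 0.173, limma adjusted p 0.000113). The second read 8972, 11039.6, 12012 and 10320.1 in Hira CKO and 7831, 6513, 6308 and 8349 in control animals, and rose by 0.54 (SE 0.120, limma adjusted p 0.0116). Neither probe overlapped between the groups, so the gene has no single direction in these data. The sequences that the probes target were not used here. Eif4h, a helper of the same helicase and the brightest of this group, differed by 0.06 log2 and did not pass.

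Of 10 probes for eIF4E, its relatives and the binding proteins that hold it inactive, 1 rose and 3 fell. That is 40%, against 20.6% of all probes. Eif4ebp3, a member of the inhibitor family, read 5385, 3499, 6277 and 3134 in Hira CKO and 2765, 1961, 1959.5 and 2104 in control animals. The groups did not overlap, although the Hira CKO animals spread widely, and the probe rose by 1.01 (SE 0.215, limma adjusted p 0.00969), the largest rise of any member. Eif4ebp2, another inhibitor, fell at 1 probe by 0.53 (SE 0.159, limma adjusted p 0.0419). It was not called in 5 of 8 leave-one-out fits, and the second probe differed by −0.20 and did not pass.

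The other 2 falls of this group were at dim probes. Eif4e2, a cap-binding relative that represses translation, read 117, 142, 140.1 and 107 in Hira CKO and 229, 260.3, 275 and 281 in control animals, and fell by 0.96 (SE 0.104, limma adjusted p 0.000238). Its brighter probe averaged 6656 in Hira CKO and 7435 in control mice and did not pass. Eif4e1b, an oocyte form of eIF4E, fell by 0.62 at a probe that averaged 34.9 in Hira CKO and 62.2 in control mice, and differed by −0.13 at its second, which did not pass. Both Eif4e1b probes were under 100 in both groups, as were 6 member probes in all, and the pseudocount of 16 weighs on such values.

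**Figure D2:**
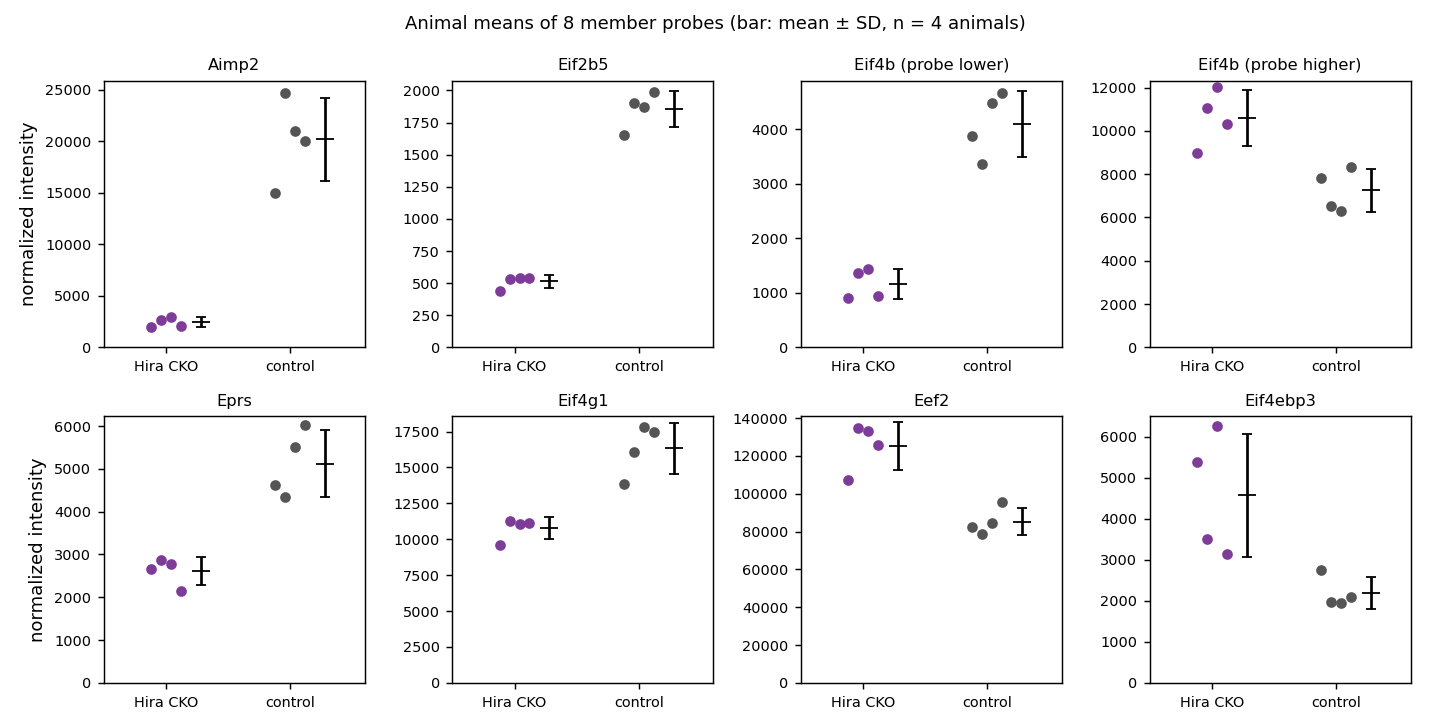
Normalized intensity (y axis, from 0) of each animal at 8 member probes, with 4 Hira CKO animals left and 4 control animals right; bars are the mean ± SD. In each panel the groups do not overlap, and the panels for Aimp2, Eif2b5 and the Eif4b probe that fell show the widest gaps.

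The late initiation factors eIF5 and eIF5B, which release eIF2 or join the ribosomal subunits, were grouped with eIF5A and eIF6. The group had 7 probes, of which 0 passed. Their differences ran from −0.11 to 0.21 log2. Eif5a, which helps the ribosome through difficult peptide bonds, had 3 probes at 0.16 to 0.19 log2.

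Of the 5 elongation probes 1 rose and 1 fell (40%, against 20.6% of all probes). The product of the gene that fell acts on that of the other. Eef2, the factor that moves the ribosome along the mRNA, read 107173, 134665, 133363 and 125819 in Hira CKO and 82232, 78651, 84619 and 95458 in control animals. Every Hira CKO value was above every control value, and Eef2 rose by 0.55 (SE 0.096, limma adjusted p 0.00354). Eef2k, the kinase that switches eEF2 off, fell by 0.32 (SE 0.092, limma adjusted p 0.0362). It read 2427, 2938, 2394 and 2290.3 in Hira CKO and 3308, 3170.2, 2901 and 3111 in control animals, so 1 animal of each group overlapped, and 6 of 8 leave-one-out fits did not call Eef2k. The muscle form Eef1a2 averaged 84737 in Hira CKO and 78768 in control mice, a difference of 0.11 log2 (95% interval −0.16 to 0.37) that did not pass.

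Aimp2 had the largest change of all members and was the 5th largest fall of all probes on the array. Its protein holds the multi-synthetase complex together. The probe read 2001, 2687, 2983 and 2079.8 in Hira CKO and 15034, 24712, 20966 and 20014 in control animals. The highest Hira CKO value was far below the lowest control value, and the probe fell by 3.07 (SE 0.178, limma adjusted p 7.06e-06). The second Aimp2 probe did not follow. It read 1292, 1133, 2664 and 2335 in Hira CKO and 2001, 1891, 1615 and 2803 in control animals, overlapping throughout, with a difference of −0.22 (SE 0.274, limma adjusted p 0.601). Its 95% interval, −0.83 to 0.39, leaves out the value at the first probe. Among the 1001 probes whose numbers lie within 500 of the first probe, 18 were among the 100 largest falls on the array, a group that makes up 0.378% of all probes, and 16% fell, against 10% of all probes. The same count was 16 around the Sars2 probe (14.4% fell) and 12 around the Eif4e1b probe that fell (13% fell). It was 18 around the Eif1ax probe, which rose. These windows overlap that of Aimp2, the Eif1ax window almost wholly, so the counts are not separate. Around every other member probe that passed the count was 0 to 7, in windows of at most 1001 probes. The part of probe number in these results was not tested.

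The genes of the other scaffold proteins did not pass. Aimp1 averaged 17605 in Hira CKO and 16760 in control mice, and Eef1e1, which encodes AIMP3, averaged 4473 in Hira CKO and 4806 in control mice. Their differences were 0.07 log2 (95% interval −0.12 to 0.26) and −0.11 (−0.36 to 0.14).

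The multi-synthetase complex was taken as 11 genes, a list assembled with the values in view, of which 10 were measured by 12 probes. Of these 12 probes 0 rose and 4 fell, in Aimp2, Eprs, Qars and Kars, while 10.5% of all probes rose and 10% fell. Aimp2 and Eprs each have another probe that did not pass. The median difference was −0.07 log2, and because of how the list was made the count is no test of the complex. Eprs, the enzyme for glutamate and proline, read 2668, 2869.9, 2780.0 and 2139 in Hira CKO and 4613, 4343, 5500.4 and 6031 in control animals, and fell by 0.97 (SE 0.131, limma adjusted p 0.000852). Its second probe averaged 12364 in Hira CKO and 12660 in control mice, a difference of −0.03 log2 that did not pass. Qars, for glutamine, read 2716, 3301, 2731 and 2836 in Hira CKO and 3687, 3966, 4932 and 4404 in control animals, and fell by 0.56 (SE 0.107, limma adjusted p 0.00600). Kars, for lysine, read 8289, 9941, 9222 and 9479 in Hira CKO and 10788, 12600.3, 14089 and 12531 in control animals, and fell by 0.44 (SE 0.096, limma adjusted p 0.0114). None of these 3 falls overlapped between the groups. The 8 probes of the complex that did not pass lay between −0.22 and 0.20 log2.

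**Figure D3:**
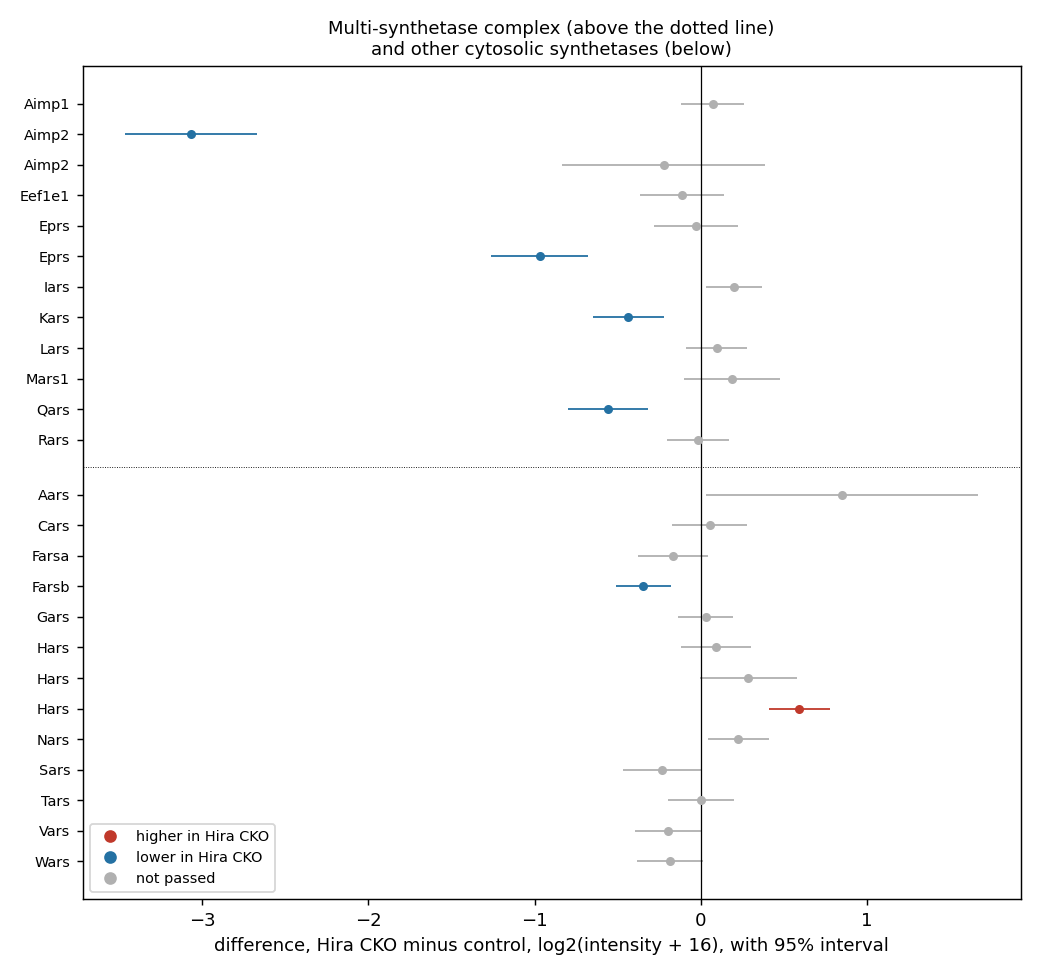
Difference in log2(intensity + 16), Hira CKO minus control (x axis), with its 95% interval, for each probe of the multi-synthetase complex (above the dotted line) and of the other cytosolic synthetases (below). Probes that fell are at Aimp2 (−3.07), Eprs (−0.97), Qars (−0.56), Kars (−0.44) and Farsb (−0.35); a Hars probe rose (0.59).

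Outside the complex, Farsb, a subunit of the phenylalanine enzyme, fell by 0.35 (SE 0.075, limma adjusted p 0.0106). It read 21140.2, 19052, 20404 and 21702 in Hira CKO and 26706, 27299, 26868 and 23727 in control animals, without overlap, but with only the third array of each animal the difference was −0.11 (limma adjusted p 0.565, the highest over its alternatives, which began at 0.00654). Its partner subunit Farsa differed by −0.17 log2 and did not pass. Hars, for histidine, rose by 0.59 at 1 of 3 probes (SE 0.082, limma adjusted p 0.000989), which read 4173, 3702, 3477 and 3664 in Hira CKO and 2559.9, 2258, 2591 and 2487 in control animals. The other Hars probes differed by 0.29 and 0.09 and did not pass. In all, 1 of 21 cytosolic synthetase probes rose and 4 fell (23.8%, against 20.6% of all probes).

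The 4 synthetases with the ATF4 element, chosen for description after their values were seen, did not pass. Aars, for alanine, read 1188, 1308, 1508 and 1414 in Hira CKO and 753, 1243, 382 and 1306 in control animals, a difference of 0.85 (SE 0.367, limma adjusted p 0.128). The control animals spread widely, and the higher 2 of them lay within the Hira CKO range. Iars, for isoleucine, differed by 0.20 (limma adjusted p 0.0888), with every Hira CKO animal above every control animal. Gars, for glycine, differed by 0.03 log2, and Tars, for threonine, by 0.0003.

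Of 17 mitochondrial synthetase probes 3 rose and 3 fell (35.3%, against 20.6% of all probes). Hars2 read 4106, 4012, 3449.9 and 3833 in Hira CKO and 2473, 2448, 2625 and 2279 in control animals, and rose by 0.64 (SE 0.080, limma adjusted p 0.000554), while its dimmer probe differed by 0.09 and did not pass. Aars2 read 4117, 4204, 3731 and 4113 in Hira CKO and 2716, 3035, 3066 and 2762 in control animals, and rose by 0.48 (SE 0.075, limma adjusted p 0.00208). The groups did not overlap at either probe. Lars2, the brightest of the group, rose by 0.47 (SE 0.148, limma adjusted p 0.0484), but 6 of 8 leave-one-out fits did not call it.

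The falls among mitochondrial synthetases were in Vars2 (−0.42 log2, limma adjusted p 0.0299), Sars2 (−0.40, limma adjusted p 0.0326) and Cars2 (−0.34, limma adjusted p 0.0185). The groups did not overlap for any of these 3 probes. Cars2 averaged 2423 ± 117 in Hira CKO and 3074 ± 291 in control mice (SD, n = 4 each), and it was called in all 8 leave-one-out fits but not with only array 2 or only array 3 of each animal. Vars2 and Sars2 were each missed in 5 of these 8, and a second Vars2 probe differed by 0.10 and did not pass.

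Hars and Hars2 are neighbouring genes on chromosome 18 with 0 protein-coding genes between them, and Eif4ebp3 lies 10 protein-coding genes from Hars. Of 9 member probes on that chromosome 3 rose, 1 in each of these genes, and 0 fell, while 12.2% of all its probes rose and 9.51% fell. The Hars and Hars2 probes that rose read alike, at averages of 3754 and 3850 in Hira CKO and 2474 and 2456 in control mice. Whether the 2 probes read separate transcripts was not tested.

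The Argonaute genes gave 1 rise and 2 falls at 6 probes (50%, against 20.6% of all probes). Ago2, the cutting member of the family, rose at 1 probe by 0.72 (246 ± 28 in Hira CKO and 142 ± 10.6 in control mice, SD, n = 4 each, limma adjusted p 0.000638). It fell at another by 0.33 (limma adjusted p 0.0241), missed by 5 of 8 leave-one-out fits, and differed by 0.03 at the third. Ago3 fell by 0.71 (SE 0.176, limma adjusted p 0.0184), with 1 Hira CKO animal at 699.9 and 1 control animal at 626 overlapping. Ago3 was missed by 1 of 8 leave-one-out fits, without control animal 3, and by 4 other alternative fits. Without the Argonaute probes, 10 of 108 probes rose and 16 fell.

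Probes of 1 gene often differed. Of the 90 genes 19 had several probes, and 10 of these had at least 1 that passed. In 9 of the 10 a further probe did not pass, and in Eif4b both passed in opposite directions. Eif4b and Ago2 were called both ways. At 14 of the 19 genes all probes had the same sign. Over all calls, 20 of 29 held in each of the 8 leave-one-out fits, and 26 of 29 had groups without overlap. The calls were made on these same animals, so both counts describe the calls and are no separate support for them.

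**Figure D4:**
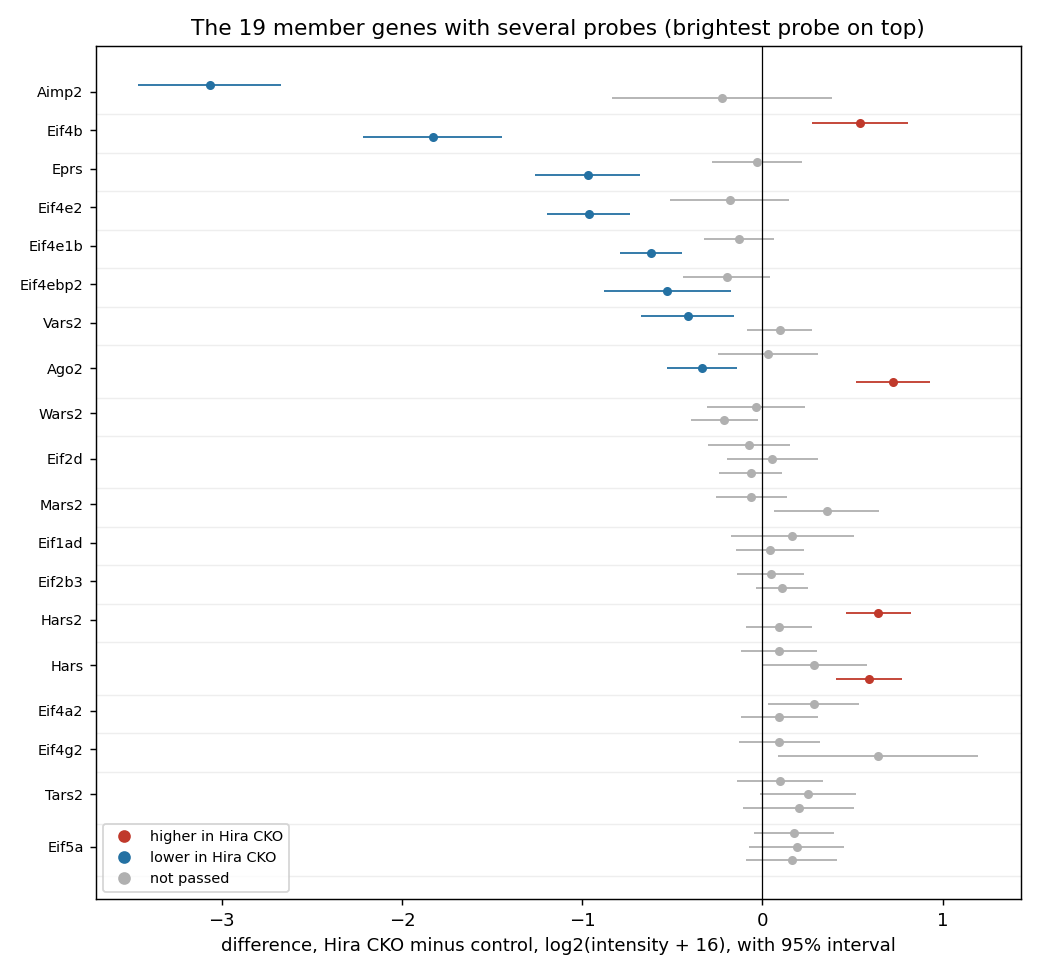
Difference in log2(intensity + 16), Hira CKO minus control (x axis), with its 95% interval, for each probe of the 19 member genes with several probes (rows). Aimp2, with probes at −3.07 and −0.22, and Eif4b, with probes at 0.54 and −1.83, show the widest disagreement.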

How the data were processed

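Per the labels' protocols, muscles were flash frozen, RNA was extracted with Trizol, and 5 micrograms of Cy5-labelled total RNA were used. The deposited table holds a linear intensity per probe and array, normalized by the authors. Judged from the values, quantile normalization and background subtraction had been applied: array medians were 431.5 to 433.5, 81.1% of values were multiples of 1/24 within 0.001, and 50 of all values were at or below 0. The software is not given in the sources used here, nor are slides or scan dates, so a batch of arrays and the group cannot be told apart. The table has no detection calls, and precision is limited by the number of animals.

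Values below 0 were set to 0, 16 was added, log2 was taken, and the 3 arrays of an animal were averaged. The comparison used lmFit and eBayes of limma 3.58.1 (R 4.3.3), adjusted by Benjamini-Hochberg over 26423 probes, with a threshold of 0.05. Differences on this scale understate changes of dim probes. Simulated data with known changes were used to test the fit. It recovered 41.8% of changes of 0.5 log2, 79.1% of those of 1 log2 and 100% of those of 2 log2. The simulation changed 67, 67 and 66 probes of these sizes, far fewer than passed in the data, so its threshold on p was stricter. Changes near 0.5 log2 can be missed, so a probe that did not pass is not shown to be unchanged.

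Probes were named from the platform annotation: 20377 had 1 symbol and 6046 are unnamed here. Symbols were updated through RefSeq (GRCm38.p6). Of the members' probes 107 had a current symbol and 7 a synonym. That table was used for names and gene order, since the array's build is not given.

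The text names every member that passed, with all probes of its gene, the elongation factor 1A and scaffold genes, and the brightest member of each role. The members and lists were chosen with earlier results of these data known. Alternatives were other normalizations, pseudocounts, filters, treatments of the 3 arrays, variance models, thresholds, the animal number as a block, and each animal left out. Figures were drawn with matplotlib 3.10.9.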

Additional observations from a re-analysis of the deposited data

Results flagged for a closer look

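The test for an animal far from the other 3 of its group was run on 104 groups of 4 animals and singled out 7. Chance alone singles out about 1 in 20 groups. In Hira CKO, animal 1 lay below the others at 2 chromosome 16 genes, at 438.31 for Eif2b5 (the others at 536.42 to 543.4) and at 9631.6 for Eif4g1 (11056 to 11300). Hira CKO animal 4 read 2111.7 at the Eif4ebp2 probe that did not pass (2587.7 to 2675.5). Control animal 4 read 23727 for Farsb (26706 to 27299), nearest to the Hira CKO values. Control animal 1 read 13615 for Eif2a (9786.3 to 10317), and without it Eif2a passed, with a rise of 0.39 log2. It also read 420.74 at the dim Hars2 probe (356.15 to 366.31). Control animal 3 read 19087 for Aimp1 (15818 to 16278).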

How the results depend on the processing

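The direction of each of the 29 member calls was the same in every alternative fit run for it, 21 for each but the dim Eif4e1b probe, which has 20 because the filter on dim probes removes it, and 15 of them passed in every one. The other 14, each lost in at least 1, were probes of Ago2 (the fall), Ago3, Cars2, Eef2k, Eif1ax, Eif2b1, Eif3h, Eif4b (the rise), Eif4ebp2, Farsb, Kars, Lars2, Sars2 and Vars2. The counts without Argonaute probes and with the brightest probe of each gene were added after seeing the data. Leaving out 1 animal gave 9 to 15 member rises and 12 to 16 falls, 1841 to 2634 rises (1841 without Hira CKO animal 1) and 1817 to 2499 falls over all probes, and 3 to 9 rises and 10 to 14 falls among other translation genes, where the 3 rises came without Hira CKO animal 2, and 5 were left without Hira CKO animal 1 or control animal 2. With the animal as a random block of its 3 arrays, 18 member probes and 15 probes of other translation genes rose. With only array 1, 2 or 3 of each animal, 11, 11 and 11 member probes fell, 1522, 1269 and 1577 of all probes rose and 1669, 1579 and 1547 fell, and of other translation genes 5, 3 and 4 rose and 7, 7 and 9 fell. At an adjusted p of 0.01, 7 member probes rose and 8 fell, 1113 and 1296 of all probes, and 3 and 6 of other translation genes. With the animal number as a replicate block, 11 member probes rose and 17 fell, and 27 of the 29 calls remained, with Lars2 and Eif3h lost. Animals of the same number did not deviate together (correlations of −0.06 to 0.30, and not every animal correlated best with its own number), so the numbers were not taken as pairs. Values that passed and moved by over 1.5 times were Farsb and Eef2k with only array 3 (−0.11 and −0.19 log2), Ago3 with only array 1 (−0.46), Eif4e1b with a pseudocount of 50 (−0.40), and, of other translation genes, Fars2, from −0.81 to −0.41 with only array 1, −0.53 with the median of the arrays and −1.48 with only array 3, and Pstk and Etf1 with only array 3 (0.28 and 0.24). Of named values that did not pass, Aars reached 0.45, Iars 0.02 and Eif2a 0.07 at their lowest. The cause was not tested.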

Other observations

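Genes of translation that the member rule leaves out were described from a list of 75, of which 70 were measured by 84 probes. Of these 9 rose and 15 fell in Hira CKO (28.6%, against 20.6% of all probes), with a median difference of 0.00 log2. These probes too were brighter than most, with a median intensity of 2304 against 443 for all probes. Release and recycling factors gave 2 rises and 3 falls at 12 probes. Gspt1, the GTPase that acts with the release factor in termination, averaged 2586 ± 365 in Hira CKO and 6508 ± 247 in control mice (SD, n = 4 each) and fell by 1.34 on the log2 scale, while its second probe differed by 0.18 (995 ± 158 and 864 ± 35.3) and did not pass. Its partner Etf1, the release factor itself, rose at 2 probes, by 0.44 and 0.41, which 4 and 6 of 8 leave-one-out fits did not call. Mcts1, which recycles the small subunit together with Denr, fell by 0.46. Denr had a probe that fell by 0.39 and another that differed by −0.04 and did not pass.

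Mitochondrial translation factors gave 3 rises and 3 falls at 14 probes (42.9%, against 20.6% of all probes). The initiation factors of mitochondria differed in direction: Mtif2 rose by 0.67 (3203 ± 450 in Hira CKO, 1992 ± 162 in control mice) and Mtif3 fell by 0.96 at a dim probe (67.9 ± 11.7 and 146 ± 19.5). Tufm, the mitochondrial elongation factor Tu, was called both ways at 2 probes, at −0.42 and 0.29. Synthetases and related genes outside the rule gave 2 rises and 5 falls at 14 probes (50%, against 20.6% of all probes). Fars2, the mitochondrial phenylalanine synthetase, fell at all 3 of its probes (−0.81, −0.76 and −0.30). The largest and the smallest of these falls were missed by 2 and 6 of 8 leave-one-out fits. Gatb, a subunit of the enzyme that makes glutamine-loaded tRNA in mitochondria, rose by 0.46, and Pstk, which acts in loading selenocysteine, by 0.49. Secisbp2 and Sepsecs fell (−0.36 and −0.38 log2).

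Of 16 probes for the eIF2 phosphatases and targets of ATF4, 0 rose and 2 fell (12.5%, against 20.6% of all probes). Shmt2, a serine enzyme of mitochondria, fell by 1.35 at a dim probe (55.3 ± 9.54 in Hira CKO, 165 ± 22.6 in control mice), while its second probe differed by 0.09 and did not pass. Asns, asparagine synthetase, fell by 0.66, which 6 of 8 leave-one-out fits did not call. Poly(A)-binding and mRNA-binding partners gave 2 rises and 2 falls at 13 probes (30.8%, against 20.6% of all probes). Pabpc1, the cytoplasmic poly(A)-binding protein, rose by 0.44, which 5 of 8 leave-one-out fits did not call, and the helicase Dhx29 rose by 0.39. Paip1, a partner of poly(A)-binding protein, fell by 0.62, and the nuclear Pabpn1 by 0.43. Of 15 probes for translation signalling 0 passed, with differences from −0.15 to 0.45 log2.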
